A study of Mus musculus with 9 samples.

Results

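The 7 genes described here encode the membrane carriers and enzymes that take up glucose and hold it in the cell: the glucose transporter genes Slc2a1, Slc2a3 and Slc2a6 and the hexokinase genes Hk1, Hk2, Hk3 and Hkdc1. They were chosen by name, with earlier results of these data known, and each name matched 1 row among the 46517 genes of the deposited expression table. All libraries came from C57BL/6 mice into whose pancreas tumor cells had been injected, called orthotopic transplanted (OT) mice, and the cells were taken on day 27 after that injection. The tumor cells were a luciferase-expressing line from a genetic mouse model of pancreatic cancer that carries mutant Trp53. Live CD45+ cells that lacked the lymphocyte markers CD3, B220 and NK1.1 and carried Ly6G and Ly6C were sorted from bone marrow, blood and tumor, and 3 RNA libraries were made per compartment, each from pooled mice of a separate experiment. The labels name the bone marrow cells Ly6G.hi and those of blood and tumor Ly6G+, no compartment of mice without a tumor was analysed here, and each p-value refers to the spread between these pools.

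Glucose enters a cell down its gradient through carriers of the SLC2A (GLUT) family, and hexokinases then phosphorylate it to glucose 6-phosphate, which cannot leave through the same carriers. GLUT1, from Slc2a1, is the widely expressed carrier that many cells make in larger amounts when oxygen is low, GLUT3, from Slc2a3, is a carrier of high affinity found in neurons and white blood cells, and GLUT6, from Slc2a6, sits largely on inner membranes. Hexokinase 1 and hexokinase 2 can bind to mitochondria, with hexokinase 2 the inducible form of muscle, fat and many tumors, hexokinase 3 is the form of myeloid cells, and HKDC1 is a related protein best known from epithelia.

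The main pattern was a change in the balance of isoforms. Slc2a1 had the lowest level of the 3 transporter genes in every bone marrow and blood library and the highest in every tumor library, whereas Hk3 remained the leading hexokinase gene in every library but gave up part of its share to Hk2, Hk1 and Hkdc1 in the tumor. Levels are given as reads per kilobase of merged exon per 1000000 reads, on the library sizes used for the deposited values, because genes can be compared with each other only per length. Differences between compartments are given on the scale of the deposited log2 FPKM values and were tested with limma over the 7794 genes that passed a filter on low values. Hkdc1 did not pass that filter, so 6 of the 7 genes were in the test.

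The genes lie in GRCm38 as follows in the GENCODE M21 annotation. Slc2a1 is on chr4:119108711-119137983 on the plus strand, and the other members are all on the minus strand. Slc2a3 is on chr6:122727809-122801640, Slc2a6 on chr2:27021363-27027998, Hk2 on chr6:82725025-82774454 and Hk3 on chr13:55005985-55021385. Hk1, on chr10:62268855-62379908, and Hkdc1, on chr10:62383137-62422491, are neighbours with 3228 bases between them. All are protein-coding genes. The study's methods give reads per gene and do not say whether reads in introns were included, so the levels per kilobase of exon may hold some. The exons of Slc2a1 share 105 bases with the antisense gene Gm12868, those of Hk1 share 157 bases with Hk1os and those of Hk3 share 34 bases with Unc5a. These partners had 0 to 11, 1 to 17 and 0 to 10 reads per library, and whether the counting used strand is not given in the sources used here.

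The promoters of Slc2a1 and Hk2, which rose in tumor against both other compartments, and of Slc2a6 and Hk3, which fell from blood to tumor, are printed to show the same stretch of each, from 250 bases before to 50 bases after the RefSeq start (GRCm38.p6, 5′ to 3′ on the gene's own strand). Capitals mark each match, on either strand, to the core letters bound by hypoxia-inducible factors, searched as ACGTG and GCGTG, so that a match on the other strand reads CACGT or CACGC. The windows are Slc2a1 at chr4:119108495-119108794 on the plus strand, and on the minus strand Hk2 at chr6:82774405-82774704, Slc2a6 at chr2:27027949-27028248 and Hk3 at chr13:55021336-55021635.
Slc2a1: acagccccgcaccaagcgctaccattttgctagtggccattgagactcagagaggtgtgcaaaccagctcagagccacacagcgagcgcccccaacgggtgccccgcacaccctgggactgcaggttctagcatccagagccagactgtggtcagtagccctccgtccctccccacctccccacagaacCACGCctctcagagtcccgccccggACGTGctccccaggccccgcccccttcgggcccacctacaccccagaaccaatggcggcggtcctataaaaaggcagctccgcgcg
Hk2: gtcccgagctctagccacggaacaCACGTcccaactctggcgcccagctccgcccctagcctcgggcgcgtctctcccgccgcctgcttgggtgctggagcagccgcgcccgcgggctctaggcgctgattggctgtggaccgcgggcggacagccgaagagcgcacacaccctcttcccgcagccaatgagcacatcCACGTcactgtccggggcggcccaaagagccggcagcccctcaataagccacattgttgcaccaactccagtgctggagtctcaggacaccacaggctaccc
Slc2a6: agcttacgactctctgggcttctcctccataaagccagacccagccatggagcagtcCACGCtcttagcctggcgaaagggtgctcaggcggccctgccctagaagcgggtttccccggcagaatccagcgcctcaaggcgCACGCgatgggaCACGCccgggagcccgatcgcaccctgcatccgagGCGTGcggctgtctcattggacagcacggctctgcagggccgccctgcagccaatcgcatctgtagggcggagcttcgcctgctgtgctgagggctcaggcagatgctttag
Hk3: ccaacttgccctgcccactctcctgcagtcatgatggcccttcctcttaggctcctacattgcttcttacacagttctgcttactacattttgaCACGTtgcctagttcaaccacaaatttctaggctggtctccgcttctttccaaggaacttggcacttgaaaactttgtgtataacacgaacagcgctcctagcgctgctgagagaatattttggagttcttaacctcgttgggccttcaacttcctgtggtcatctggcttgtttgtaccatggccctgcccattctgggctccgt

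These windows held 2 cores for Slc2a1, 2 for Hk2, 4 for Slc2a6 and 1 for Hk3. The Hkdc1 window held 1, and of the 2 start sites listed for Hk1 one window held 0 and the other 5. Among all 32851 RefSeq promoters of the same length 43.8% held at least 1 core, so a core was present both at genes that rose and at genes that fell in the tumor and was common elsewhere. The letters CACGTG, which contain ACGTG, and GAGGAAGT were found in none of the 7 windows of the 6 members listed, against 7.15% and 3.20% of all promoters. A match is a run of letters and not a measured binding site.

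The libraries held 4580807 to 7949367 reads on genes. The sorted cells carried neutrophil markers throughout, as all 10 listed neutrophil genes had reads in every library, but their sum in reads per 1000000 reads of the library (RPM) went down from 57880 to 58400 (bone marrow) through 34210 to 34920 (blood) to 12280 to 14450 (tumor). Not every listed gene followed that sum. From bone marrow to blood Csf3r rose from 13802 to 18048 reads to 52750 to 72754, and Cxcr2 from 18992 to 21428 to 27073 to 46509. From blood to tumor Cd177 rose from 3231 to 6094 reads to 6944 to 8951. The other genes of the list had fewer reads at these steps. In bone marrow, blood and tumor, 10 genes of pancreatic tumor epithelium such as Krt8, Krt19 and Epcam summed to 8.02 to 11.5, 21.4 to 141 and 2926 to 6259 RPM, and all 10 had reads in every tumor library. Fibroblast genes summed to 1108 to 1363 RPM in tumor against at most 9.99 elsewhere, and acinar and islet genes to 526.9 to 2493 in tumor against at most 6.88 elsewhere. The tumor reads of the latter list were on the acinar genes Cela1, Cpa1, Pnlip and Cel. The islet genes Ins1 and Ins2 had at most 1 and 3 reads in any tumor library, and the acinar gene Amy2a5 at most 3. Granule genes of immature neutrophils stood at 1055 to 1648 RPM in bone marrow and at 3.49 to 16.1 in blood and tumor, and red cell and platelet genes were highest in blood, with 252 to 494 and 451 to 635. Macrophage and monocyte genes had 381 to 393, 1255 to 1417 and 492 to 632, endothelial genes 10.4 to 16.5, 31.7 to 36.3 and 90.6 to 128 and lymphocyte genes 25.6 to 48.7, 63.4 to 114 and 6.00 to 8.75 in bone marrow, blood and tumor. Most of the macrophage and monocyte reads in blood were on Csf1r, with 4796 to 6885 per library. The listed C1qa, C1qb, C1qc, Mrc1 and Ms4a7 had at most 29 reads each in any blood library. The part that RNA of these other cells has in the levels below was not tested. In sorted bulk samples a change in the share of a cell type and a change in RNA per cell cannot be told apart.

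**Figure D1:**
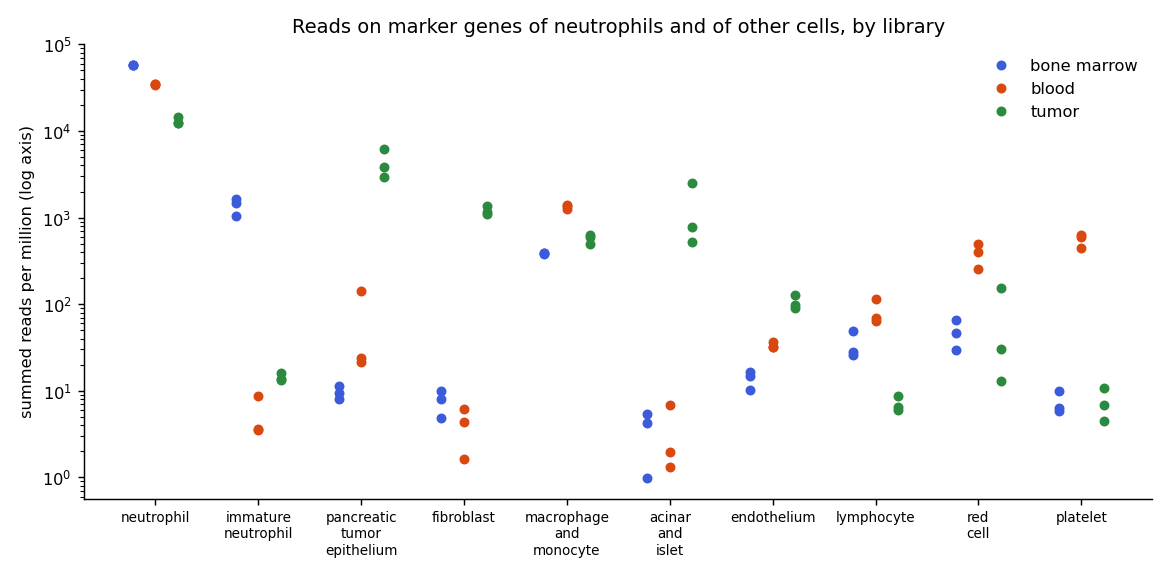
Summed RPM of each list of marker genes (log axis) in the 9 libraries, with 1 point per library coloured by compartment. Neutrophil genes lead in every library, and the tumor libraries stand apart in epithelial and fibroblast genes and in the acinar genes of the acinar and islet list, with epithelial genes at 2926 to 6259 RPM.

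Of the transporters, Slc2a1 was the one that rose at both steps. Its level was 38.1, 32.9 and 26.9 in bone marrow replicates 1 to 3, 123, 131 and 129 in those of blood and 246, 322 and 210 in those of tumor. The compartments did not overlap in any pair, and the blood libraries were the most alike. The log2 FPKM values averaged 1.95 ± 0.25 for bone marrow, 3.93 ± 0.04 for blood and 4.93 ± 0.31 for tumor (SD, n = 3 each). Slc2a1 was 2.00-fold higher in tumor than in blood, a log2 difference of 1.00 ± 0.18 (SE; limma adjusted p = 0.00161). It was 3.94-fold higher in blood than in bone marrow (log2 1.98, limma adjusted p = 1.23e-04) and 7.89-fold higher in tumor than in bone marrow (log2 2.98, limma adjusted p = 8.29e-06). Its direction and call held under each of the 22 alternative settings run, with a tumor to blood difference of 0.83 to 1.45. The tumor library with the fewest epithelial marker reads, replicate 2 with 2926 RPM, had the highest Slc2a1 level, and the one with the most, replicate 3 with 6259 RPM, had the lowest. Endothelial genes, with 96.8, 128 and 90.6 RPM in tumor replicates 1 to 3, and macrophage and monocyte genes, with 596, 632 and 492 RPM, had the same order of libraries as Slc2a1, and their part in its level was not tested. Most of the endothelial reads were on Pecam1, with 381 to 742 per tumor library, 76 to 125 in bone marrow and 138 to 235 in blood. Cdh5, Kdr, Emcn and Tie1 had at most 73 reads each in any tumor library. Neutrophil genes, with 14450, 12280 and 12310 RPM, were lowest in replicate 2. The 3 tumor libraries allow no test of such an order. The protein GLUT1 was also a marker that the study chose for its own staining.

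Slc2a3, the high-affinity carrier, fell in the tumor. Its level was 249, 273 and 228 for bone marrow, 204.5, 239 and 224 for blood and 62.6, 87.4 and 64.7 for tumor. The bone marrow and blood libraries overlapped, and each tumor library was below all of them. The gene was 3.14-fold lower in tumor than in blood (log2 -1.65 ± 0.14, SE, limma adjusted p = 4.10e-05) and 3.52-fold lower than in bone marrow (log2 -1.82, limma adjusted p = 2.98e-05). The difference between blood and bone marrow, -0.17 ± 0.14, did not pass (limma adjusted p = 0.384).

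Slc2a6 peaked in blood. Its level was 101, 89.7 and 70.6 for bone marrow, 239.8, 243 and 227 for blood and 53.3, 64.7 and 49.0 for tumor. All 3 blood libraries were above the rest, and the tumor libraries were just below those of bone marrow. The gene was 2.75-fold higher in blood than in bone marrow (log2 1.46, limma adjusted p = 2.35e-04) and 4.28-fold lower in tumor than in blood (log2 -2.10 ± 0.15, SE, limma adjusted p = 1.63e-05). The smaller difference between tumor and bone marrow, log2 -0.64 (limma adjusted p = 0.00783), no longer passed on plain library totals (-0.19, adjusted p = 0.221) or after quantile normalization (-0.28, adjusted p = 0.0796).

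**Figure D2:**
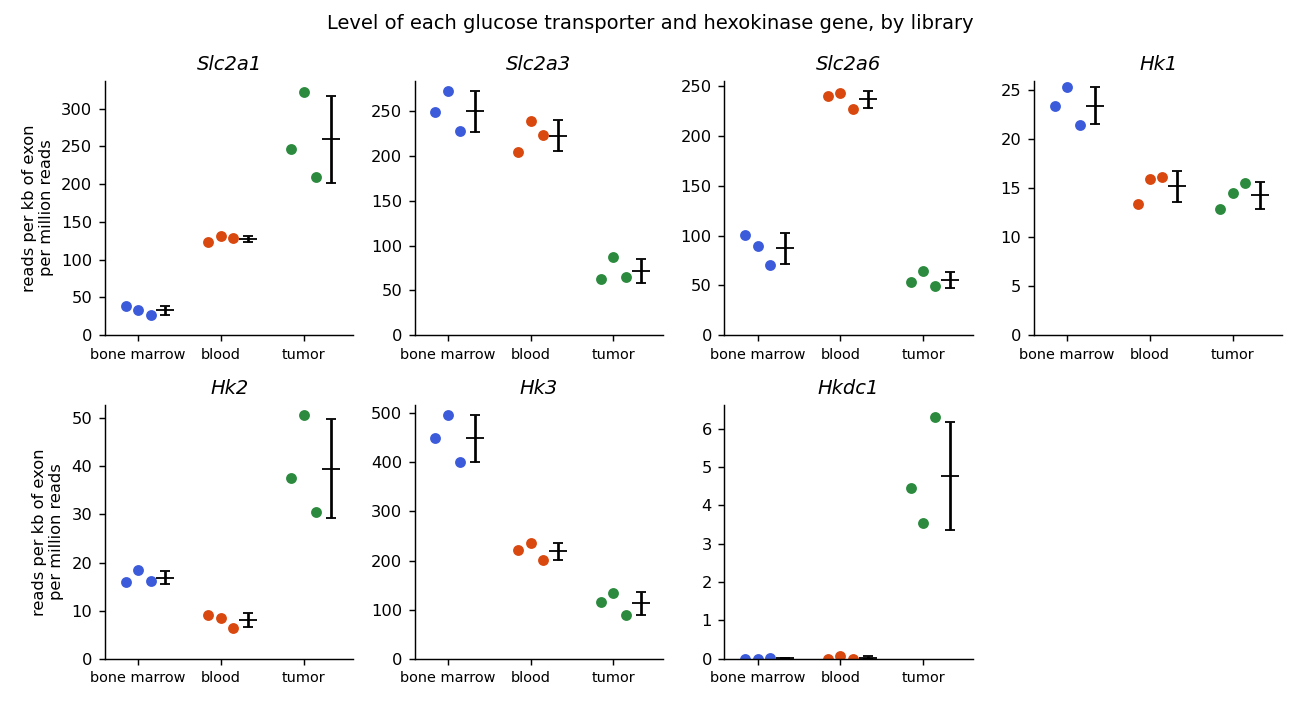
Level of each member in reads per kilobase of exon per 1000000 reads, 1 point per library in replicate order, with the mean and SD of the 3 libraries as a black bar beside them. Slc2a1 climbs from about 32.6 in bone marrow to 259 in tumor, Slc2a6 peaks in blood, Hk3 falls at each step, Hk2 is highest in tumor, and Hkdc1 is near 0 outside the tumor.

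Among the hexokinase genes Hk3, the myeloid form, had the highest level in all 9 libraries and fell at each step. Its level was 449.7, 496 and 400.3 for bone marrow, 221.5, 235 and 200.7 for blood and 115, 134 and 88.8 for tumor. No compartments overlapped. Hk3 was 2.05-fold lower in blood than in bone marrow (log2 -1.03, limma adjusted p = 0.00151) and 1.97-fold lower in tumor than in blood (log2 -0.98 ± 0.16, SE, limma adjusted p = 9.95e-04). From bone marrow to tumor it was 4.02-fold lower (log2 -2.01, limma adjusted p = 2.93e-05). Immature neutrophil genes also had their highest summed level in bone marrow. Between blood and tumor, where Slc2a3 and Slc2a6 fell too, the summed neutrophil genes went from 34210 to 34920 RPM down to 12280 to 14450 RPM, although Cd177 of that list rose. The part of either change in the Hk3 level was not tested.

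Hk2, the inducible form, fell from bone marrow to blood and was highest in tumor. Its level was 15.9, 18.4 and 16.2 for bone marrow, 9.07, 8.55 and 6.43 for blood and 37.6, 50.6 and 30.4 for tumor. Every blood library was below every bone marrow library, and every tumor library was above both. Hk2 was 4.87-fold higher in tumor than in blood (log2 2.28 ± 0.22, SE, limma adjusted p = 6.78e-05) and 2.30-fold higher than in bone marrow (log2 1.20, limma adjusted p = 0.00233), and it was 2.12-fold lower in blood than in bone marrow (log2 -1.08, limma adjusted p = 0.00561). As for Slc2a1, tumor replicate 2 had the highest level and tumor replicate 3 the lowest. The endothelial sum, mostly Pecam1, and the macrophage and monocyte sum had that order too. Slc2a6 and Hk3, which were lower in tumor than in blood, had that order as well, whereas Slc2a3, Hk1 and Hkdc1 did not. The order was thus not particular to the genes that rose. Hk2 and Hkdc1 were among the glycolysis genes that the study displayed from these same libraries, so their direction is not independent evidence.

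Hk1, the form present in most tissues, changed least. Its level was 23.4, 25.3 and 21.5 for bone marrow, 13.4, 16.0 and 16.2 for blood and 12.8, 14.5 and 15.5 for tumor. Blood and tumor overlapped, and all libraries of both were below those of bone marrow. Hk1 was 1.55-fold lower in blood than in bone marrow (log2 -0.63, limma adjusted p = 0.0161), a call lost without bone marrow replicate 1 (adjusted p = 0.0506), without bone marrow replicate 2 (adjusted p = 0.0561) or after quantile normalization (-0.48, adjusted p = 0.0703). It was 1.64-fold lower in tumor than in bone marrow (log2 -0.71, limma adjusted p = 0.00683), which did not pass on plain library totals (-0.26, adjusted p = 0.240). Between tumor and blood the difference was -0.09 ± 0.16 (limma adjusted p = 0.671), and its sign turned on plain library totals (0.36, adjusted p = 0.105).

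Hkdc1 was all but limited to the tumor libraries. It had 0, 0 and 1 reads for bone marrow, 0, 2 and 0 for blood and 142, 137 and 257 for tumor, where its level was 4.46, 3.53 and 6.31. Both reads of blood were in replicate 2, the blood library with the most epithelial marker reads, 141 RPM against 24.0 and 21.4. Acinar and islet genes were highest in that library too, with 6.88 RPM against 1.31 and 1.98. It was also the blood library with the most reads on genes, 6830374 against 4580807 and 5566644. The 536 tumor reads against 2 in blood gave a rate ratio of 176 with an exact 95% interval of 48.4 to 1454, and against 1 in bone marrow a ratio of 469 with an interval of 83.8 to 18550. These intervals cover counting error only. Fitted without the filter on low values, the log2 difference from blood was 8.21 ± 1.13 (SE; limma adjusted p = 0.00385), a size that depends on the constant added before the log. In tumor replicates 1 to 3 Hkdc1 had 26.1, 19.7 and 39.5 RPM. The epithelial genes had 3858, 2926 and 6259 RPM there, and the acinar and islet genes 776, 527 and 2493. Hkdc1 and both of these lists thus had the same order of libraries, the reverse of that of Slc2a1 with 983, 1224 and 897. The 3 tumor libraries allow no test of that order, and the part of epithelial or acinar RNA in the Hkdc1 reads was not tested.

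Counted over the 6 genes tested, 2 were higher and 3 lower in tumor than in blood, where 28.1% and 34.5% of all genes tested were called in the respective direction. Between tumor and bone marrow 2 were higher and 4 lower, beside 22.4% and 32.9% of all genes, and between blood and bone marrow 2 were higher and 3 lower, beside 20.6% and 23.6%. The members were thus called often in data in which 62.6%, 55.3% and 44.2% of all genes were called in either direction. The median difference over the 6 members was -0.53, -0.68 and -0.40, beside -0.17, -0.21 and -0.04 over all genes tested. Every tumor library was above every blood library for 3 of the 7 members and below for 3, Hkdc1 included, beside 30.0% and 37.0% of all genes tested, and the same split against bone marrow held for 3 and 4, beside 26.2% and 37.7%. Blood libraries were all above those of bone marrow for 2 members and all below for 3, beside 27.8% and 31.0%. The comparisons share libraries, so their counts are not independent. Plain library totals in place of the sizes used for the deposited values raised the median gene by 0.45 on the log2 scale in tumor against either other compartment and by 0.00 in blood against bone marrow.

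**Figure D3:**
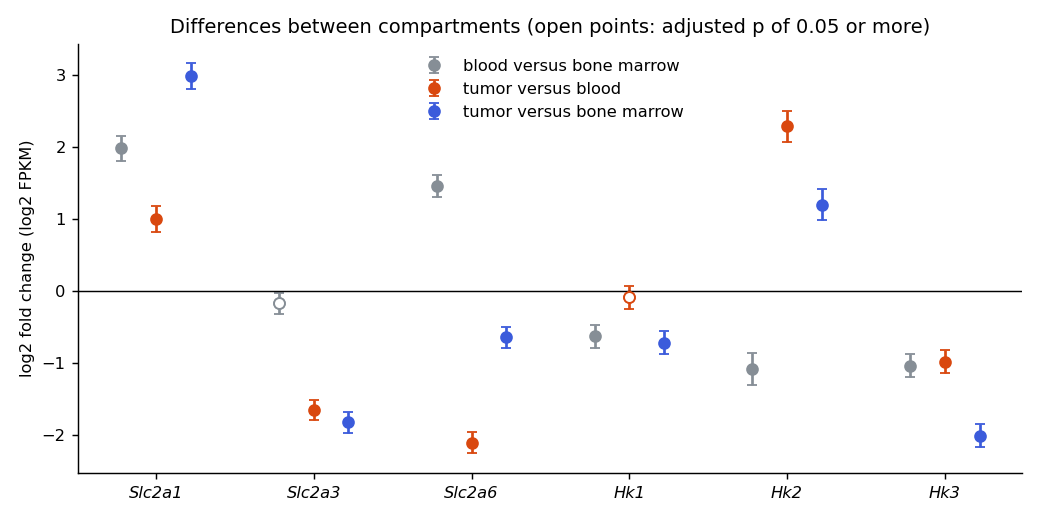
Log2 fold change of the 6 members tested in each of the 3 comparisons, with its standard error from limma, and with open points where the adjusted p was 0.05 or more. Slc2a1 and Hk2 are the members above 0 in both comparisons with tumor, and the open points are Slc2a3 between blood and bone marrow and Hk1 between tumor and blood.

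Shares within a family do not depend on how a library was scaled. Slc2a1 made up 8.80% ± 0.88 of the transporter level of bone marrow, 21.7% ± 0.42 of that of blood and 66.9% ± 1.80 of that of tumor (SD, n = 3 each). Slc2a3 went the other way, from 67.7% ± 3.13 to 37.9% ± 1.61 and 18.6% ± 1.37. Slc2a6 held 23.5% ± 2.26, 40.4% ± 1.64 and 14.5% ± 0.77. Each of these shares differed among the compartments (exact permutation test over the 3 compartments, p = 0.00357, the smallest the 280 distinct splits allow, adjusted over 7 isoforms 0.00625). Libraries of one compartment were close to each other, with Slc2a1 at 68.0, 67.9 and 64.8% in the tumor libraries.

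Hk3 made up 91.7% ± 0.31 of the hexokinase level of bone marrow, 90.4% ± 0.48 of that of blood and 65.6% ± 2.46 of that of tumor (exact permutation p = 0.00357, adjusted 0.00625). Hk2 held 3.45% ± 0.22, 3.30% ± 0.42 and 22.9% ± 1.84 (exact permutation p = 0.025, adjusted 0.0292), with bone marrow and blood overlapping, a call lost with a replicate block (adjusted p = 0.0972). Hk1 held 4.79% ± 0.11, 6.29% ± 0.89 and 8.57% ± 2.13 (exact permutation p = 0.00714, adjusted 0.01), with its highest mean share in the compartment of its lowest mean level. The Hk1 call was lost when reads were not divided by length (adjusted p = 0.0536). Hkdc1 held 2.94% ± 1.39 in tumor and at most 0.0269% in any other library (exact permutation p = 0.0357, adjusted 0.0357), a call lost with a replicate block (adjusted p = 0.111) and when any bone marrow or blood library was left out (adjusted p = 0.05 to 0.0714). A pair of compartments with 3 libraries each cannot reach an exact p below 0.1.

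**Figure D4:**
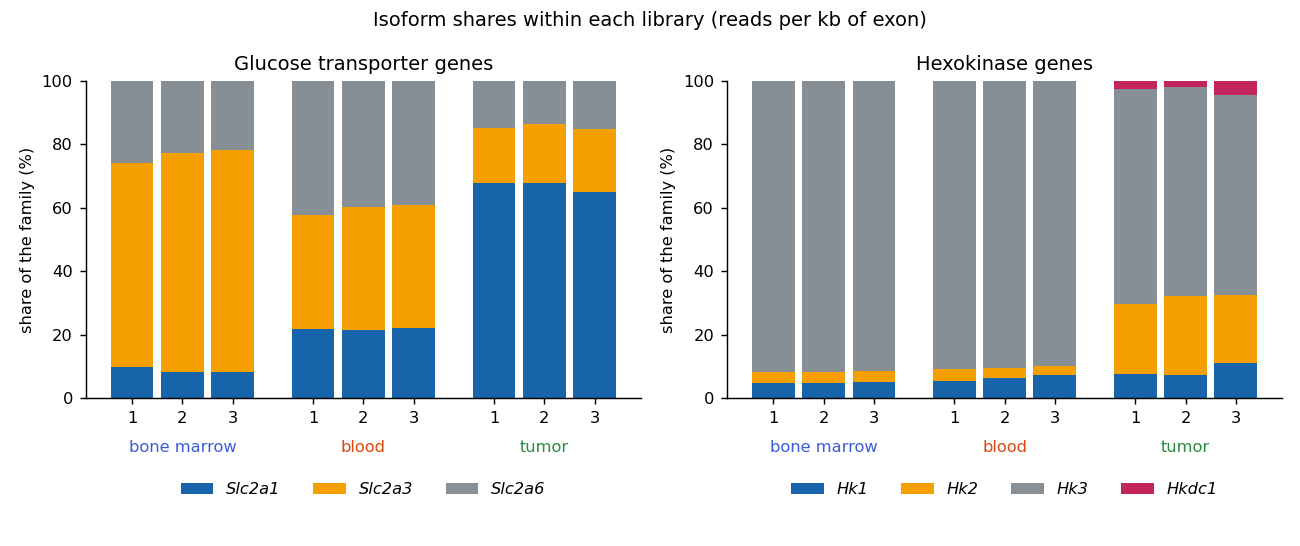
Stacked shares (%) of the 3 transporter genes and of the 4 hexokinase genes in each library, from reads per kilobase of exon. Slc2a1 fills 64.8 to 68.0% of the transporter bar in tumor, and Hk3 fills at least 62.9% of every hexokinase bar, with Hk2 at 21.6 to 25.0% in tumor.

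The size of a share depends on the gene length used. In the deposited FPKM values, which divide by the genomic span of each member, introns included, Slc2a6 with its short introns led in bone marrow and blood with 59.5% and 75.5%, and Slc2a1 led in tumor with 47.6%. Hk3 then held 96.5%, 96.1% and 80.5%. By the longest coding transcript Slc2a3 led in bone marrow and blood with 73.5% and 45.2%, and Slc2a1 led in tumor with 56.3%. So the lead of Slc2a1 in tumor and of Hk3 everywhere did not depend on this choice, whereas the leading transporter of bone marrow and blood did.

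The ratio of 2 isoforms within a library does not depend on its scaling either, and 6 ratios were compared. A ratio can still move with the mix of cells in a library, and that part was not tested. Slc2a1 to Slc2a3 was 0.153, 0.120 and 0.118 for bone marrow, 0.603, 0.547 and 0.574 for blood and 3.93, 3.68 and 3.24 for tumor. The ratio thus passed 1 only in the tumor libraries, and its geometric mean rose 6.28-fold from blood to tumor and 27.8-fold from bone marrow to tumor (exact permutation p = 0.00357 over the compartments, adjusted 0.00429). Slc2a1 to Slc2a6 had geometric means of 0.375, 0.538 and 4.62, and Slc2a6 to Slc2a3 had 0.346, 1.07 and 0.781, each with the same exact p. Hk2 to Hk3 was 0.0354, 0.0371 and 0.0404 for bone marrow, 0.0410, 0.0364 and 0.0320 for blood and 0.326, 0.377 and 0.343 for tumor. Bone marrow and blood overlapped there, and the tumor ratio was 9.59-fold that of blood (exact permutation p = 0.025, adjusted 0.025). Hk1 to Hk3 rose from 0.0522 to 0.0691 and 0.128, and Hk2 to Hk1 was 0.720, 0.525 and 2.71 (exact permutation p = 0.00357 each, adjusted 0.00429).

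**Figure D5:**
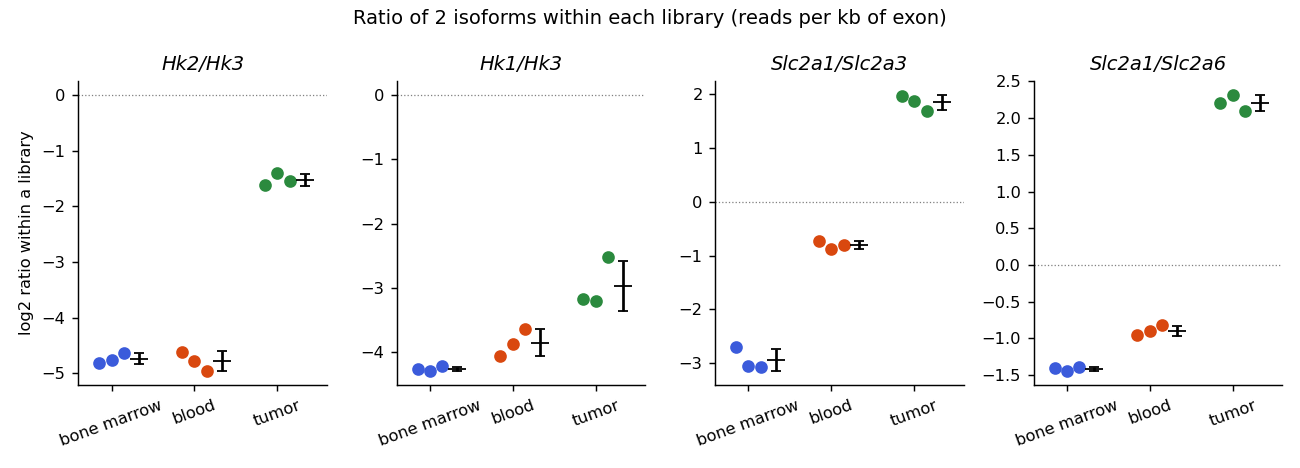
Log2 ratio of 2 isoforms within each library, 1 point per library, with the mean and SD beside them and a dotted line where both isoforms have the same level. Slc2a1 passes Slc2a3 and Slc2a6 only in the tumor libraries, and Hk2 stays below Hk3 in all 9 with a ratio 9.59-fold higher in tumor than in blood.

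Within a compartment the order of the 7 genes also changed. In bone marrow it ran Hk3 (449 ± 47.8), Slc2a3 (228 to 273), Slc2a6 (87.1 ± 15.4), Slc2a1 (26.9 to 38.1), Hk1 (23.4 ± 1.91), Hk2 (16.8 ± 1.37) and Hkdc1, and no neighbours overlapped. In blood Slc2a6 (237 ± 8.46), Slc2a3 (222 ± 17.3) and Hk3 (219 ± 17.2) overlapped at the top, followed by Slc2a1 (127 ± 3.81), Hk1 (15.2 ± 1.58) and Hk2 (8.02 ± 1.40). In tumor Slc2a1 (259 ± 57.3) came first, ahead of Hk3 (113 ± 22.8) and Slc2a3 (71.6 ± 13.8). Slc2a6 (55.6 ± 8.11) overlapped with Slc2a3 above it and with Hk2 (39.5 ± 10.2) below it, and Hk1 (14.3 ± 1.37) and Hkdc1 (4.77 ± 1.41) came last.

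Summed over the 3 genes, the transporter level was 388, 395.5 and 325 for bone marrow, 567.5, 613 and 579.8 for blood and 362, 474 and 323 for tumor. Blood was above both others, whereas bone marrow and tumor overlapped (exact permutation over the compartments, p = 0.0357, adjusted over the 2 sums 0.0357). That call was lost without blood replicate 1, 2 or 3 (adjusted p = 0.0714 each), and on plain library totals the tumor sums, 395 to 514, overlapped those of blood, 488 to 501, and were above those of bone marrow, 287 to 327. The log2 difference between tumor and bone marrow, 0.05, became 0.50 on plain library totals. The hexokinase sum was 489, 539.7 and 438 for bone marrow, 244, 259.5 and 223 for blood and 170.2, 203 and 141 for tumor, without overlap (exact permutation p = 0.00357, adjusted 0.00714). On plain library totals tumor, 172 to 219.9, and blood, 188 to 212, overlapped. Neither sum passed with a replicate block (adjusted p = 0.0556 for the hexokinases and 0.111 for the transporters). Most of the hexokinase sum is Hk3. The log2 difference of the sum between tumor and blood, -0.51, shrank to -0.06 on plain library totals, as the transporter sum's did from -0.62 to -0.17.

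Other glucose carriers were scarce. Of 13 other carrier genes only Slc50a1, a sugar carrier of another family, passed the filter on low values, and on the deposited scaling it was called in no comparison (100 to 132, 51 to 112 and 128 to 193 reads in the bone marrow, blood and tumor libraries). Its log2 difference between tumor and blood was 0.43 (limma adjusted p = 0.0934, unadjusted p = 0.0641), and no comparison of it reached an unadjusted p of 0.05 on that scaling. On plain library totals it was called higher in tumor than in blood (0.88, adjusted p = 0.00660) and than in bone marrow (0.72, adjusted p = 0.020), and after quantile normalization than in blood (0.67, adjusted p = 0.0201). Slc2a8, an intracellular carrier, had 14 to 29 bone marrow reads, 1 to 6 blood reads and 43 to 69 tumor reads, and the fructose and urate carrier Slc2a9 had 30 to 61, 1 to 18 and 6 to 19. Slc2a4, the insulin-responsive carrier, had at most 9 reads in any library. With limma-voom on recovered reads, which tests more low genes, 6 gene and comparison pairs of this list were called.

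Of 12 listed genes for enzymes and carriers of glucose 6-phosphate, 7 were tested. In blood against bone marrow 5 were lower and none higher, beside 23.6% and 20.6% of all genes tested. In tumor against blood 3 were higher and 2 lower, beside 28.1% and 34.5%, and in tumor against bone marrow 1 was higher and 3 lower, beside 22.4% and 32.9%. The median log2 difference of the 7 genes was -1.38, 0.04 and -0.34 in these comparisons. Adpgk, a kinase that makes glucose 6-phosphate with ADP instead of ATP, fell 14.6-fold from bone marrow to blood (log2 -3.87, limma adjusted p = 1.37e-05). Its mean level was 399 for bone marrow (23732 to 24436 reads), 27.3 ± 2.71 for blood and 28.5 ± 6.88 for tumor, so in bone marrow it was near that of Hk3. The annotated span of Adpgk overlaps that of Bbs4 on the other strand. G6pdx, the entry enzyme of the pentose phosphate pathway, fell at each step (log2 -1.38 to blood and -1.82 from blood to tumor, limma adjusted p = 2.99e-04 and 3.22e-05). Gpi1, the next enzyme of glycolysis, fell as well (log2 -0.84 and -0.70, limma adjusted p = 0.00259 and 0.00364), the latter not passing on plain library totals (-0.25, adjusted p = 0.110) or after quantile normalization (-0.16, adjusted p = 0.247). The other genes lower in blood were G6pc3 and H6pd, a phosphatase and a dehydrogenase of glucose 6-phosphate in the endoplasmic reticulum. Both were higher in tumor than in blood (log2 1.64 and 1.63, limma adjusted p = 0.00538 and 0.00761), as was the glucose 6-phosphate carrier Slc37a4 (log2 1.29, limma adjusted p = 9.85e-04). Against bone marrow Slc37a4 was the single higher gene in tumor (log2 1.31, limma adjusted p = 0.00111), and Adpgk, G6pdx and Gpi1 were lower.

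Genes that act on glucose uptake or bind hexokinases were tested for 11 of 16 listed. In tumor against blood 5 were higher and 3 lower, beside 28.1% and 34.5% of all genes tested. In tumor against bone marrow 5 were higher and 2 lower, beside 22.4% and 32.9%, and in blood against bone marrow 3 were higher and 6 lower, beside 20.6% and 23.6%. The median log2 difference of the 11 genes was 0.43, 0.46 and -0.81. Txnip, an arrestin-like protein that removes GLUT1 from the cell surface, rose 3.42-fold from bone marrow to blood (log2 1.77, limma adjusted p = 5.73e-05) and fell 3.92-fold from blood to tumor (log2 -1.97, limma adjusted p = 1.32e-05), with levels of 249.7 ± 23.2, 854 ± 79.8 and 218 ± 28.8. Arrdc3, of the same family, went the same way (log2 2.73 and -3.10, limma adjusted p = 3.03e-05 and 6.37e-06). So in blood Txnip and Slc2a1 were both above bone marrow, whereas in tumor Slc2a1 was higher and Txnip lower than in blood.

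Vdac1, Vdac2 and Vdac3, pores of the outer mitochondrial membrane to which hexokinases 1 and 2 bind, fell from bone marrow to blood (log2 -1.38, -0.89 and -0.81, limma adjusted p = 2.68e-04, 2.37e-04 and 0.00572) and were higher in tumor than in blood (log2 1.84, 0.45 and 1.36, limma adjusted p = 2.67e-05, 0.00323 and 2.27e-04), as Hk2 was. Against bone marrow Vdac1 and Vdac3 were higher in tumor (log2 0.46 and 0.55, limma adjusted p = 0.0296 and 0.0239), as Myc and Trp53 were (log2 1.97 and 1.07, limma adjusted p = 0.0138 and 0.0159). Vdac2 was lower there (log2 -0.44, limma adjusted p = 0.00462), but not on plain library totals (0.01, adjusted p = 0.925). The transcription factor genes Myc and Trp53 also fell from bone marrow to blood (log2 -2.29 and -1.09, limma adjusted p = 0.00958 and 0.0191) and were higher in tumor than in blood (log2 4.26 and 2.16, limma adjusted p = 2.40e-04 and 4.00e-04). Hif1a, which encodes the hypoxia-inducible subunit, rose from bone marrow to blood (log2 0.62, limma adjusted p = 0.0243) and stood above bone marrow in tumor as well (log2 1.05, limma adjusted p = 0.00158), while its difference between tumor and blood, log2 0.43, did not pass (limma adjusted p = 0.0685). That difference passed on plain library totals (0.88, adjusted p = 0.00178), after quantile normalization (0.63, adjusted p = 0.0130) and with limma-voom (0.42, adjusted p = 0.0422). Mlx, the partner of glucose-sensing transcription factors, was lower in blood than in bone marrow (log2 -1.03, limma adjusted p = 1.13e-04) and lower in tumor than in bone marrow (log2 -1.48, limma adjusted p = 9.20e-06). Its log2 difference of -0.45 between tumor and blood (limma adjusted p = 0.00299) was gone on plain library totals (adjusted p = 0.986). The study showed Hif1a, Myc and Trp53 from these libraries too, so they are not independent evidence, and the transplanted tumor cells carry mutant Trp53.

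The genes with the profiles most like those of the members over the 9 libraries were found by the root mean square difference of centred log2 FPKM values. For Slc2a1 they were Smox, Ets2 and Nlrp3 (0.23 to 0.24), for Slc2a3 Def6, Ptpre and D930015E06Rik (0.09 to 0.13), and for Slc2a6 Adam19, C5ar2 and Lrrc25 (0.09 to 0.10). For Hk1 they were Htra2, Pacsin2 and Lrrc57 (0.05 to 0.10), for Hk2 Eif4e, Mesdc2 and Vps37b (0.21 to 0.24) and for Hk3 Msra, Mafg and Dhdds (0.13 to 0.17). No member was among the nearest genes of another. Slc2a1 and Hk2, the tested members that were highest in tumor, were also those whose nearest genes were farthest away.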

How the data were processed

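Neutrophil RNA was sequenced in 9 libraries (SMARTSeq v2, paired ends). According to the methods and the submitters' processing notes, the authors mapped reads with STAR 2.5.2b to GRCm38, counted them over GENCODE M7 genes with featureCounts 1.5.0 and used edgeR 3.8.6. The deposited values are log2 FPKM per gene and library. From these values whole reads were recovered for 100% of the 46517 genes, within 1e-05 reads. The authors had added a constant of 0.221 reads on average, scaled library sizes by factors of 0.796 to 1.22 and, for 38873 of the 46005 genes found in GENCODE M21, divided by the genomic span. Exon-scaled levels use merged M21 exons.

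Compartments were compared with limma 3.58.1 (R 4.3.3, eBayes with trend, Benjamini-Hochberg at 0.05, all 9 libraries in 1 fit) on the deposited log2 FPKM values of genes above 0 in at least 3 libraries, and shares, ratios and sums with exact two-sided permutation tests. The fit and the recovery of reads were checked on simulated data. The groups are those of the labels. The members and gene lists were chosen with earlier results of these data known. Besides the members, genes named are those in counts of 5 or fewer, the 4 of a list with the highest mean FPKM, and the 3 nearest profiles per member, except that 1 glycogen gene is not reported here. Alternatives covered the filter, pseudocounts of 1 and 0.1 FPKM, scaling, the length used, limma-voom on recovered reads with a minimum of 5 reads, other eBayes settings, a replicate block, a log2 difference of at least 1 and leaving out each library.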

Additional observations from a re-analysis of the deposited data

How the results depend on the processing

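For the 18 gene results of the members, 379 of 390 values under alternative settings kept their direction and their side of the threshold, 10 lost the call and 1 turned. The turned value is Hk1 between tumor and blood, 0.36 on plain library totals. The lost calls concern Slc2a6 between tumor and bone marrow, Hk1 in both comparisons with bone marrow and, where a log2 difference of at least 1 was also required, Hk3 between tumor and blood (-0.98). A stricter filter on low values, which leaves out the low Hk1 and Hk2, left 3 members called between blood and bone marrow. Calls on the other glucose transporters, 0 in the main setting, numbered 2 without a filter, 1 after quantile normalization, 2 on plain library totals, 6 with limma-voom and 0 to 1 when a library was left out. Calls on glycogen genes over the 3 comparisons, 27 in the main setting, numbered 15 with the stricter filter, 47 with limma-voom and 24 to 28 when a library was left out. Leaving out a library gave 3 to 4 passing hexokinase shares and a summed transporter difference between tumor and blood of -0.78 to -0.50, which no longer passed without blood replicate 1, 2 or 3 (adjusted exact permutation p = 0.0714 each). The paper describes the neutrophils of the compartments as coming from the same mouse, so the libraries may be matched by experiment. The sources used here do not say that equal replicate numbers mark the same pool of mice. Deviations of same-numbered libraries correlated at -0.07 to 0.11, those of other libraries at -0.10 to 0.11. Tests without a block treat the 9 libraries as unmatched. With a replicate block, whose smallest permutation p is 0.0278, the passing hexokinase shares numbered 2, without Hk2 (adjusted p = 0.0972) and Hkdc1 (adjusted p = 0.111), and the sums did not pass (hexokinase -0.51, adjusted p = 0.0556, and transporter -0.62, adjusted p = 0.111). The block left 5, 6 and 5 members called between tumor and blood, tumor and bone marrow, and blood and bone marrow, as without it. Depth limits Hkdc1 in bone marrow and blood, where a count of 0 in a library allows up to 3 reads.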

Other observations

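Glucose 6-phosphate can also be stored as glycogen, and 12 of 25 listed glycogen genes were tested. In tumor against blood 4 were higher and 5 lower, in tumor against bone marrow 4 were higher and 7 lower, and in blood against bone marrow 3 were higher and 4 lower, beside 28.1% and 34.5%, 22.4% and 32.9%, and 20.6% and 23.6% of all genes called higher and lower. Pygl, the glycogen phosphorylase of liver and white blood cells, did not differ beyond the threshold between blood and bone marrow (log2 -0.06, limma adjusted p = 0.596) and was 4.22-fold lower in tumor than in blood (log2 -2.08, limma adjusted p = 2.65e-06), with levels of 519.5 ± 28.3, 499 ± 44.5 and 118 ± 1.57 in bone marrow, blood and tumor (SD, n = 3 each). Pygb, the brain form, was 3.65-fold higher in tumor than in blood (log2 1.87, limma adjusted p = 0.00111) at the much lower levels of 3.70 ± 0.73, 4.47 ± 1.41 and 16.0 ± 3.27. So the phosphorylase forms moved in opposite directions between blood and tumor.

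Gyg, the primer of glycogen synthesis, fell at each step (log2 -1.07 to blood and -1.41 from blood to tumor, limma adjusted p = 3.89e-04 and 4.22e-05). Gys1, glycogen synthase, was 5.20-fold lower in blood than in bone marrow (log2 -2.38, limma adjusted p = 1.80e-04) and 3.03-fold higher in tumor than in blood (log2 1.60, limma adjusted p = 5.46e-04). Of the phosphatase subunits that target glycogen, Ppp1r3d rose in blood (log2 1.32, limma adjusted p = 2.07e-04) and was 6.08-fold lower in tumor than in blood (log2 -2.60, limma adjusted p = 4.41e-06), as Slc2a6 and Txnip were. Ppp1r3b was higher in blood than in bone marrow (log2 0.88, limma adjusted p = 0.00485) and in tumor than in bone marrow (log2 1.29, limma adjusted p = 4.45e-04). The other genes higher in tumor than in blood were Gaa and Pgm2 (log2 1.70 and 2.14), and the other lower ones were Ugp2 and Phkg2 (log2 -0.76 and -1.19), with limma adjusted p of at most 0.00171. Gaa and Pgm2 were above bone marrow in tumor as well (limma adjusted p = 9.31e-04 and 0.00437). In blood against bone marrow Pgm1 was higher (log2 0.45, limma adjusted p = 0.0438), and Pgm2 was lower (log2 -0.95, limma adjusted p = 0.017). On plain library totals the Ugp2 difference did not pass (-0.31, adjusted p = 0.0746), nor did those of Pgm1 (0.44, adjusted p = 0.0614) and Pgm2 (-0.47, adjusted p = 0.193) between blood and bone marrow after quantile normalization. The part of RNA from other cells in the tumor libraries was not tested for these genes.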
